A study of Mus musculus with 20 samples.

Results

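The wild-type mouse heart ventricle was described from 6 Affymetrix arrays out of 20 in the series, chosen because their titles name the FVBN strain and no transgene. FVBN, taken here as the inbred strain FVB/N, is the strain in which the study examined hearts that express the tetracycline transactivator (tTA), and the alpha MHC promoter, which is active in heart muscle cells, is given as a keyword for that transgene. Of the 6 arrays, 2 are FVBN control (array numbers 8177 and 8182) and 4 are FVBN + Doxy (8337, 8338, 8340 and 8341), where Doxy stands for doxycycline, the antibiotic that stops tTA from binding DNA. All 6 carry total RNA of ventricular tissue from wild-type animals. The labels give no age, sex, dose or duration of treatment, do not say that the arrays come from separate animals, and the numbers of control and Doxy arrays do not mix. The groups were therefore described together and not tested against each other.

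The ventricle beats without pause. Its muscle cells are packed with myofibrils, in which myosin heads pull on actin under the control of calcium, troponin and tropomyosin, and with mitochondria, which supply ATP mainly from fatty acids. Many of its proteins exist as isoforms from separate genes, so that heart, fast skeletal muscle, smooth muscle and embryonic muscle each use their own set. Capillary endothelial cells, fibroblasts, pericytes and macrophages share the tissue with the muscle cells, and blood remains in its vessels.

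Each probe set is a group of short DNA probes for a transcript, and its deposited intensity is a brightness on a linear scale. The 12488 probe sets included 66 controls. Of the other 12422, 10833 named 1 gene (8251 genes in all), 396 named several and 1193 named none. The brightest probe set stood for each gene, on the log2 scale after quantile normalization, and ± is the SD over the 6 arrays. A probe set was called near background at or below a log2 intensity of 6.84, the 90th percentile of 147 probe sets of 117 genes known for other organs, such as lens crystallins and digestive enzymes. It was called abundant at or above 8.15, which the brightest 10% of probe sets reach by construction, and intermediate between these limits. On this scale 1084 probe sets were abundant, 2297 intermediate (21.2%) and 7452 near background (68.8%). By gene, 1017 were abundant (12.3%), 2050 intermediate (24.8%) and 5184 near background (62.8%), and these shares are the background for every list below.

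**Figure D1:**
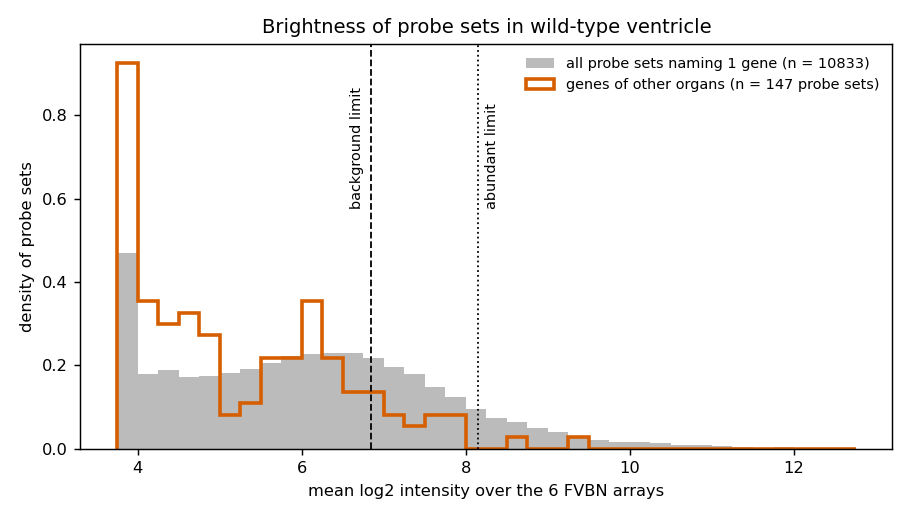
Mean log2 intensity over the 6 FVBN arrays (x axis) against the density of probe sets (y axis), for 10833 probe sets naming 1 gene (grey) and 147 probe sets of genes of other organs (orange outline). The dashed line is the background limit of 6.84 and the dotted line the abundant limit of 8.15; the median of the orange set is 4.87, that of the grey set is 6.01, and the tallest bar of each lies at the floor.

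Probe sets differ in how well they bind their target, so the rank of a gene is an order of brightness and not of transcript amounts. The array itself shows how large this effect is. In 2073 genes with 2 or more probe sets, the brightest and the dimmest lay a median of 1.43 log2 units apart and 3.53 at the 90th percentile, while the median SD of a probe set over the 6 arrays was 0.080. The widest gap, 7.87, was in Snrpb, a spliceosome core protein, and Mb, the gene of myoglobin, had one of the same size to 2 decimals, with 12.13 on 1 probe set and 4.26 on the other. Of 371 genes with several probe sets and an abundant one among them, 244 (65.8%) also had a probe set near background. They include Ckmt2, Hcn2, Ldhb, Slc2a4, Slc8a1, Mef2a, Cav1 and Col3a1, and not all such genes are marked where they are named below. A gene near background is therefore not shown to be silent. By construction, 15 of the 147 other-organ probe sets exceeded the limit. The brightest were Crybb2, a lens crystallin, at 9.31 and Tff1, a stomach secretory peptide, at 8.66, both above the abundant limit.

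The brightest gene was Myl2, the ventricular regulatory myosin light chain. Its deposited intensity was 5484 and 6407 on the control arrays and 5970, 5960, 6269 and 5562 on the Doxy arrays, a mean of 5942 ± 368. The highest and the lowest value were both on control arrays, so the groups overlap. Next came Cox6a2, the heart and skeletal muscle form of a cytochrome oxidase subunit, with a mean deposited intensity of 5228 ± 258, and Uqcrq, a subunit of respiratory complex III. Rpl41, a ribosomal protein, was 12.28 ± 0.08, Hba-a1, an alpha globin of red blood cells, was 12.28 ± 0.10, and Myl3, the ventricular essential light chain, was 12.26 ± 0.07 on the log2 scale. These neighbours do not differ beyond their spread. Tnni3, cardiac troponin I, Myh6, the alpha myosin heavy chain, and Mb, the oxygen store of muscle, completed the brightest 9.

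The 30 brightest genes fell into few functions. The sarcomere and Z-disc list held 8 of them, and 8 belonged to the lists of the respiratory chain and ATP synthase. Glycolysis gave 2, Aldoa, an aldolase, and Eno3, the muscle enolase. Hadhb, a subunit of the mitochondrial trifunctional protein of fatty acid oxidation, Slc25a4, the muscle form of the ADP/ATP carrier, and Ckmt2, the sarcomeric mitochondrial creatine kinase, were also among them. Others were Tpt1, a translationally controlled tumour protein, Gnas, the stimulatory G protein alpha subunit, and Eef1a2, the muscle and nerve form of an elongation factor. Of the 100 brightest genes, 36 belonged to the respiratory chain and ATP synthase lists, 10 to the sarcomere list, and 23 to no list. On all 6 arrays 88 genes were among the 100 brightest, and on at least 1 array 116 were.

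**Figure D2:**
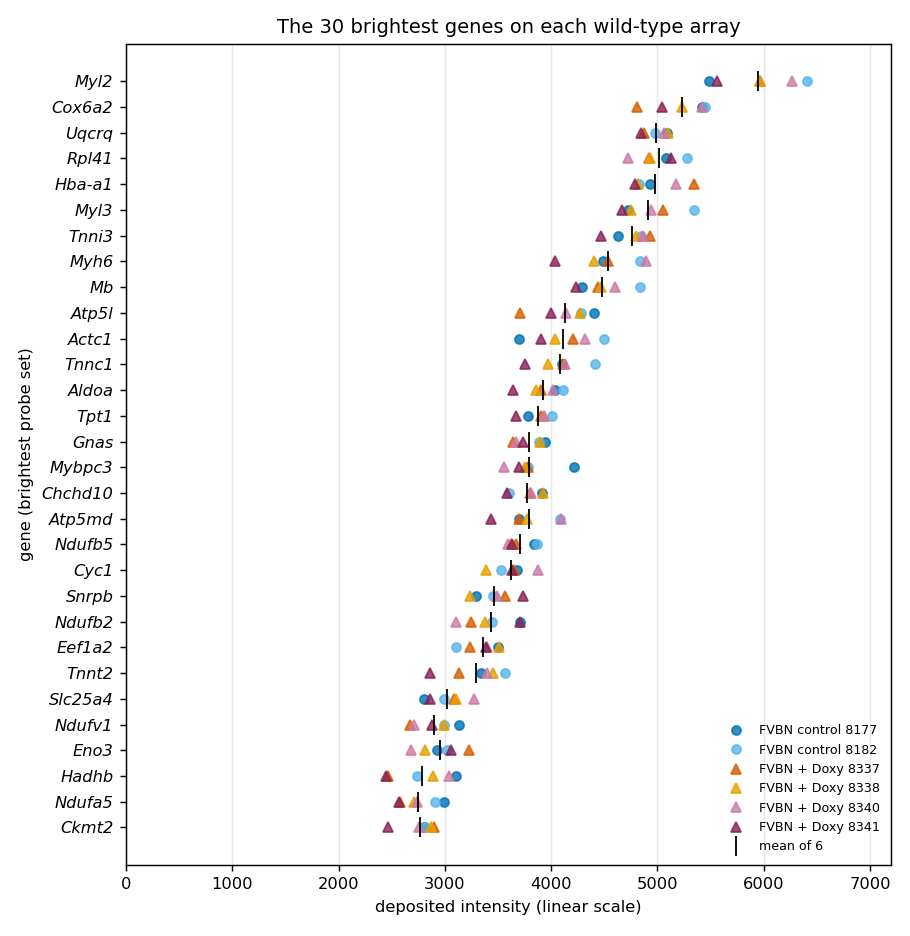
Deposited linear intensity (x axis) of the 30 brightest genes (y axis, brightest at the top), with circles for the 2 FVBN control arrays, triangles for the 4 FVBN + Doxy arrays and a bar for their mean. Myl2 spans 5484 to 6407 and lies above Cox6a2, which reaches 5443; from Cox6a2 down, each gene overlaps the next.

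In the sarcomere and Z-disc list 19 of 24 genes were measured; 15 were abundant (78.9%, against 12.3% of all genes), 1 was intermediate and 3 were near background, with a median of 10.67. The thick filament was represented by Myl2, Myl3, Myh6 at 12.15 ± 0.03 and Mybpc3, the cardiac myosin binding protein C, at 11.87 ± 0.09. Of the thin filament, Actc1, cardiac alpha actin, had a mean deposited intensity of 4110 ± 291. Tnnc1, the calcium sensor troponin C, was 11.98 ± 0.02 on the log2 scale, and Tnnt2, cardiac troponin T, 11.64 ± 0.10. In deposited log2 values the SD was larger, 0.10 for Myh6 and 0.08 for Tnnc1. At the Z-disc, Csrp3, a muscle LIM protein, was 10.84 ± 0.08 and Ldb3, the cytoskeletal linker Cypher, 10.67 ± 0.16. M-band proteins Myom1 and Myom2 read 9.50 ± 0.14 and 8.15 ± 0.15, the latter in the intermediate class at the abundant limit. The 3 members near background were Tcap, a titin cap protein, at 6.59, Tpm1, alpha tropomyosin, at 6.29, and Actn2, the Z-disc alpha actinin, at 5.62. Each has only 1 probe set, and each is a known protein of this tissue. Ttn, the gene of titin, had no probe set naming it alone.

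Isoform families showed which member was bright. Of 10 myosin heavy chains, 3 were abundant: Myh6, Myh7 and the non-muscle Myh9 at 8.65 ± 0.15. Myh7, the beta chain of slow muscle and the fetal ventricle, had deposited intensities of 1471 and 1319 on the control arrays and 766, 1107, 1204 and 1312 on the Doxy arrays, a mean of 1197 ± 244. Array 8337 was the lowest. The groups do not overlap in the deposited values, and after normalization 1 Doxy array, at 10.39, lay above a control array, at 10.29. The name of that probe set carries the letter f, which on arrays of this design marks probes shared with similar sequences, and the other Myh7 probe set read 7.46, so the signal cannot be assigned to Myh7 alone. Myh1, Myh2, Myh3 and Myh8, of fast, embryonic and perinatal muscle, read 3.85 to 4.17, and Myh11, of smooth muscle, 5.44. Myh4, of fast muscle, was intermediate at 7.40 on 1 probe set and at the floor on the other.

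Among 8 myosin light chains Myl2, Myl3 and Myl1, a fast muscle form, were abundant. Myl4 and Myl7, the atrial forms, read 6.29 ± 0.05 and 5.25 ± 0.22, both near background. On array 8177 Myl7 was 5.69, and it was 5.05 to 5.20 on the other arrays. The second Myl4 probe set was also highest there, at 5.57 against 4.57 to 4.75. In the troponins the cardiac set Tnni3, Tnnc1 and Tnnt2 was abundant, the slow skeletal Tnnt1 and Tnni1 were intermediate at 7.63 ± 0.18 and 7.58 ± 0.12, and the fast skeletal Tnnc2, Tnni2 and Tnnt3 were near background at 6.02, 4.92 and 3.91. Tnni1 is also the troponin I of the fetal heart, and its deposited intensities ran from 171 to 212. Tropomyosins were an exception: Tpm4, a cytoskeletal form, was abundant at 8.90 ± 0.16, and the main cardiac gene Tpm1 was near background.

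All 6 actins were above background. Actc1 was abundant on both of its probe sets, with the dimmer at 11.53. The name of the brighter one, whose deposited intensity is given above, carries the letter f. Its signal therefore cannot be assigned to Actc1 alone. Acta1, the skeletal alpha actin that the heart also makes, had deposited intensities of 614 and 719 on the control arrays and of 1148, 1200, 925 and 1325 on the Doxy arrays. The groups do not overlap, which held on the normalized scale for 26.6% of the 3067 genes above the background limit (816), and the pooled mean of 988 ± 283 covers them both. Group and array number cannot be told apart here. Actg1 and Acta2, of the cytoskeleton and of smooth muscle, were 9.86 ± 0.21 and 8.63 ± 0.22, and Actb, beta actin, was intermediate at 8.12 ± 0.32 on the brighter of its 2 probe sets in the ranking. The array's control probe sets for beta actin, which are not in the ranking, read 11.32, 10.81 and 10.58, so the class of Actb depends on the probe set.

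Promoters of the contractile genes are known for CArG boxes, the element bound by serum response factor. Upstream stretches of 100 bases that end at the base before the RefSeq transcription start (RefSeq promoter table, build GRCm38.p6) are shown for 3 genes that are bright here and hold this element, with the box in capitals, written 5′ to 3′ on the gene's strand. They lie at chr2:114052876-114052975 (minus strand, Actc1), chr8:123894776-123894875 (minus strand, Acta1) and chr9:110763578-110763677 (plus strand, Myl3).
Actc1: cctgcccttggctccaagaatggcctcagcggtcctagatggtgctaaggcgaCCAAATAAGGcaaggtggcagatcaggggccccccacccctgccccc
Acta1: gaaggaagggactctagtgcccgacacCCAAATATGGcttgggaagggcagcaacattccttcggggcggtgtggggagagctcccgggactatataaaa
Myl3: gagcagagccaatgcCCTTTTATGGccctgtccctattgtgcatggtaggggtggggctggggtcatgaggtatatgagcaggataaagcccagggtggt
The boxes span bases 47 to 38 before the start in Actc1, 73 to 64 in Acta1 and 85 to 76 in Myl3.

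Of 8251 genes 6576 had a promoter entry, of which the 250 bases before the start were searched, with the first entry of a gene used. A CArG box, the same on both strands, was found in 1.43% of them (94 genes). The share was 2.64% of abundant genes, 1.15% of intermediate genes and 1.29% of genes near background, and 5 of 83 (6.02%) among the 100 brightest. In the sarcomere list 4 of 16 held one: Actc1, Myl3, Ldb3 and Myom1. The other members of the 100 brightest with a box were Fhl2, a LIM-domain protein, and Hopx, a homeodomain-only protein of the heart. The motif GGGCGG, searched on both strands as the box of Sp1, was present in 54.8% of all promoters, 57.4% of those of abundant genes and 27 of 83 (32.5%) among the 100 brightest. The motif TATAAA, searched on the gene's strand from 45 to 16 bases before the start, was present in 3.15% of all, 2.28% of abundant genes, 3.66% of genes near background, 3.61% of the 100 brightest (3 of 83) and none of the 16 of the sarcomere list. The window for TATAAA depends on the RefSeq start. The Acta1 stretch above holds TATAAA nearer to its start than 16 bases, outside the window. These are matches of letters, and binding was not measured.

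Of the calcium handling list, 16 of 25 genes were measured and 7 were abundant, 5 intermediate and 4 near background. Atp2a2, the calcium pump of the sarcoplasmic reticulum (SERCA2), had deposited intensities of 2060 and 2596 on the control arrays and 2282, 2166, 2325 and 2066 on the Doxy arrays. Ryr2, the cardiac calcium release channel, had 784 and 837 on the control arrays and 576, 712, 818 and 609 on the Doxy arrays. Both overlap between groups. Slc8a1, the sodium-calcium exchanger, was 9.14 ± 0.12 on the brightest of its 3 probe sets and at the floor on the dimmest. Cacna1c, a pore subunit of L-type calcium channels, was 8.37 ± 0.13. Casq2, the cardiac calsequestrin that stores calcium, was intermediate at 7.72 ± 0.06, and Casq1, the skeletal form, was abundant at 8.77 ± 0.09, on different probe sets that cannot be set against each other. The skeletal Atp2a1 and Ryr1 were near background at 6.63 and 4.45. Camk2d, the main cardiac calmodulin kinase, read 5.41 ± 0.30.

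Of 21 ion channels measured 4 were abundant, 6 intermediate and 11 near background. Hcn2, a pacemaker channel, was 9.47 ± 0.09, Abcc9, the sulfonylurea receptor of cardiac and vascular potassium channels, 8.34 ± 0.23, and Kcnh2, the ERG potassium channel, 8.20 ± 0.11. Kcnk3, at 8.10, and Kcnj11, the pore of the ATP-sensitive channel, at 7.90, were intermediate. Kcnd2 and Kcnj2, both channels of mouse ventricle, read 4.06 and 3.87, close to the floor of 3.85. Of 8 connexins, which form the pores between cells, only Gja1, the ventricular connexin 43, was abundant (12.5%, against 12.3% of all genes). Its deposited intensities were between 1697 and 2119 on a probe set whose name carries the letter f. The other Gja1 probe set was near background at 6.56, so the signal cannot be assigned to Gja1 alone. Gja5, connexin 40 of atrium, conduction system and arteries, was just inside the intermediate class at 6.89 ± 0.07.

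The natriuretic peptides, hormones made by heart muscle, were both abundant. Nppb read 1368 and 2043 on the control arrays and 1991, 2478, 2656 and 2488 on the Doxy arrays in deposited intensity. Control array 8177 was the lowest, and the other control array lay above Doxy array 8337 in these values, so the groups overlap. After normalization both control arrays lay below all Doxy arrays. Nppa, which is highest in the atrium, was between 288 and 335 on every array, near the abundant limit (8.27 ± 0.12). Npr1, the receptor of both, was at the floor on every array.

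Energy metabolism was rich in abundant genes. Respiratory complex I, the entry point of NADH electrons, had 28 of 36 listed genes measured and 24 abundant (85.7%), 1 intermediate and 3 near background. Ndufb5 was 11.83 ± 0.05, Ndufb2 11.71 ± 0.14 and Ndufv1, the NADH-binding subunit, 11.49 ± 0.08. The name of the Ndufb5 probe set carries the letter f. Ndufb2 has 4 probe sets, and its dimmest read 4.25. Ndufa1, Ndufs4 and Ndufc2 were near background at 6.21, 5.27 and 5.11 although they belong to the same enzyme. In complexes II and III 12 of 14 were abundant, with Uqcrq at 12.29, Cyc1, cytochrome c1, at 11.78 and Sdhb, an iron-sulfur subunit, at 11.07. Cyct, the testis cytochrome c, was near background at 5.43, and the somatic Cycs was intermediate at 7.90. Of 12 ATP synthase subunits 9 were abundant, from Atp5l at 12.02 ± 0.09 to Atp5k at 8.34 ± 0.03.

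Of 12 cytochrome oxidase genes 8 were abundant, 1 was intermediate and 3 were near background. The 3 subunits with separate heart or muscle forms were bright in those forms: Cox6a2 at 12.35 ± 0.09, Cox8b at 11.23 ± 0.09 and Cox7a1 at 10.41 ± 0.10. The forms of other tissues differed among subunits. Cox6a1 and Cox7a2 were also abundant, at 10.03 and 11.08, whereas Cox8a was at 4.03. Cox5a, which has no muscle form, was near background at 4.68, and its partner Cox5b was 10.81.

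The tricarboxylic acid cycle, which burns acetyl-CoA, had 19 of 24 measured genes abundant, 1 intermediate and 4 near background. Mdh2, the mitochondrial malate dehydrogenase, was 11.19 ± 0.08, Ogdh, oxoglutarate dehydrogenase, 11.12 ± 0.14 and Idh2 11.04 ± 0.09. The cytosolic forms Mdh1, Idh1 and Aco1 were near background at 6.32, 6.80 and 4.85, as was Idh3b, a mitochondrial subunit, at 5.14. Pdk4, the kinase that turns off pyruvate dehydrogenase, was abundant and varied: its deposited intensity was 524 and 390 on the control arrays and 534, 839, 780 and 507 on the Doxy arrays. Arrays 8338 and 8340 were the high ones, and the groups overlap in these values but not after normalization.

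Of 22 fatty acid oxidation genes 14 were abundant, 5 intermediate and 3 near background. They included Hadhb at 11.41 ± 0.10, Lpl, the lipase that frees fatty acids from blood lipoproteins, at 11.17 ± 0.11, and Acadm, the medium-chain dehydrogenase, at 10.58 ± 0.09. Fabp3, the heart fatty acid binding protein, was the only abundant member of its family of 7. Its deposited intensity was 1717 and 2587 on the control arrays and 2344, 2313, 2408 and 1446 on the Doxy arrays. Arrays 8177 and 8341, 1 of each group, were low. Cd36, the fatty acid transporter of the cell membrane, was intermediate at 7.18 on its brightest probe set and at the floor on another. Acadvl, the very-long-chain dehydrogenase, was near background at 3.96 on the brighter of its 2 probe sets. Of the nuclear receptors, Ppara was intermediate at 7.51, and Ppard and Pparg were near background at 5.45 and 4.15.

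Glycolysis had 13 of 14 measured genes abundant, and the 1 near background, Pfkp, is the platelet form of phosphofructokinase. Muscle forms of isoenzymes were among the bright genes: Eno3 at 11.49 ± 0.11, Pgam2, the muscle phosphoglycerate mutase, at 10.39 ± 0.11, and Pfkm at 10.36 ± 0.12. Brain and testis forms were near background, with Aldoc at 5.93, Eno2 at 5.20, Pgk2 at 3.97 and Ldhc at 3.85. Both lactate dehydrogenases were abundant, Ldha at 10.97 and Ldhb, the heart form, at 9.69. Slc2a4, the insulin-regulated glucose transporter, was 9.18 ± 0.13; Slc2a1, the basal transporter, was near background at 5.79. Pygm, the muscle glycogen phosphorylase, read 10.25 ± 0.24. Among creatine kinases Ckmt2 was 11.40, Ckb 9.43 and Ckm, the muscle form, 8.88 ± 0.11.

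**Figure D3:**
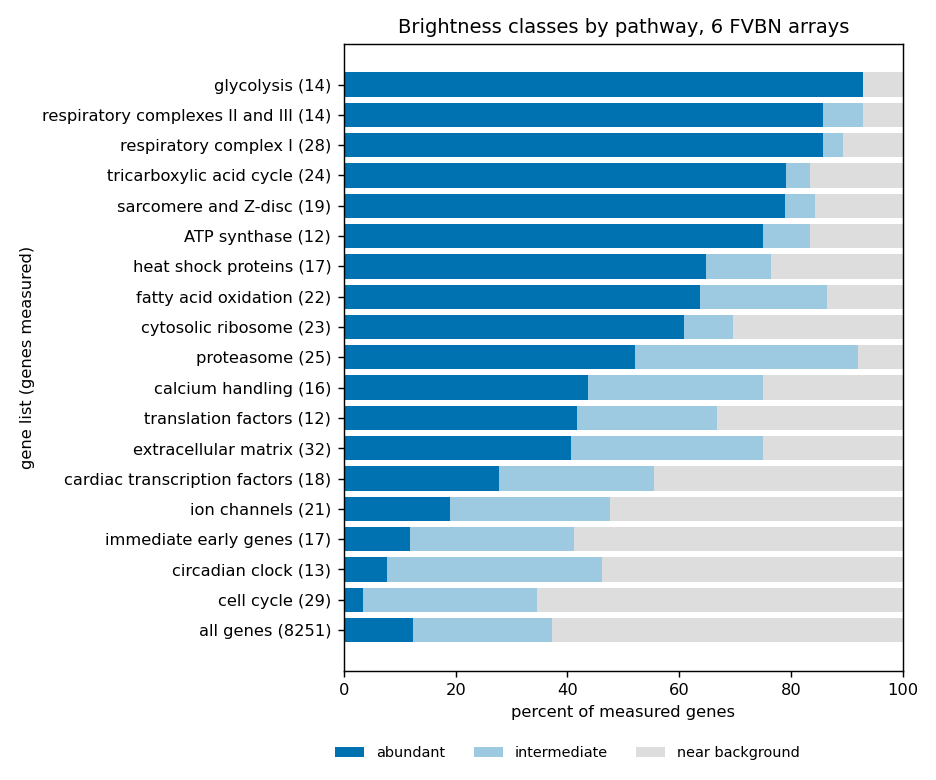
Percent of measured genes (x axis) that were abundant, intermediate or near background in each pathway list with 10 or more measured genes (y axis, number measured in brackets), on the 6 FVBN arrays. Glycolysis, the respiratory complexes, the tricarboxylic acid cycle, the sarcomere and the ATP synthase have the largest abundant shares of these lists; over all 8251 genes the share is 12.3%.

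Protein synthesis and turnover were mixed. Of 47 cytosolic ribosomal proteins 23 had a probe set of their own, and 14 were abundant, 2 intermediate and 7 near background. Rplp0 was 11.14 ± 0.06 and Rps24 11.13 ± 0.08 on the brighter of its 2 probe sets, whereas Rps14 was 4.98 and Rps15 4.27. The dimmer Rps24 probe set read 4.95, so a contrast of this size also occurs within Rps24. Of the elongation factors Eef1a2 was 11.66, Eef1a1 10.84 and Eef2 10.17, and Eef1g was at the floor. The proteasome had 13 of 25 members abundant and 10 intermediate, in a narrow range for its bright members: Psmb3 was highest at 9.32. Of 17 heat shock proteins 11 were abundant. The small ones of muscle, Hspb8, Hspb2 and Cryab, were 10.31, 9.99 and 9.36, and the inducible Hspa1a and Hspa1b were near background at 5.81 and 5.05.

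Lists of regulatory genes had smaller abundant shares than those of energy metabolism. Of 18 cardiac transcription factors 5 were abundant (27.8%, against 12.3% of all genes). They were Hopx at 10.59 ± 0.12, Mef2d at 8.99, Esrra, a receptor that drives mitochondrial genes, at 8.68, Nkx2-5 at 8.60 ± 0.08 and Mef2a at 8.39. Gata4 and Hand1 were intermediate at 7.90 and 7.59. Isl1, Tbx3 and Ppargc1a read 4.13, 4.16 and 4.20, near background. In the cell cycle list only Cdk4, a kinase of the first growth phase, was abundant (1 of 29), 9 were intermediate, and Top2a, Aurka, Rrm2 and Bub1, of dividing cells, were near background at 4.63, 4.26, 4.14 and 3.85. Of 17 immediate early genes 2 were abundant (11.8%) and 10 near background (58.8%), close to the 12.3% and 62.8% of all genes. The abundant ones were Jund, at 10.39 ± 0.09, and Dusp1, a phosphatase, at 8.87 ± 0.11. Those near background included Fos and Myc at 4.45 and 3.85.

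The clock list had Tef as its 1 abundant member of 13, 5 intermediate and 7 near background. Several of its genes varied more than usual. Nr1d2, a repressor of the clock, was 7.99 and 7.76 on the control arrays and 6.92, 7.14, 7.18 and 7.21 on the Doxy arrays. The groups do not overlap, as in 26.6% of all genes above the background limit. Dbp, an output gene of the clock, was near background but read 6.80 and 6.63 on the control arrays and 5.90, 5.61, 5.58 and 6.38 on the Doxy arrays. Arntl, another clock gene, was 4.82 and 4.65 on the control arrays and 5.06, 5.45, 5.26 and 5.04 on the Doxy arrays, all near background. Dbp and Arntl were picked from the list after their values were seen, and a cause was not tested. The labels give no time of day for any array.

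Markers of cell types were read next, to check the labelled tissue. In bulk tissue fewer cells of a type and less RNA per cell cannot be told apart. Of 17 cardiomyocyte markers 15 were measured and 14 were abundant, with a median of 11.98; Actn2 was the exception. The mean over the list lay between 10.92 and 11.01 on the control arrays and between 10.90 and 11.01 on the Doxy arrays. Of 12 atrial markers 8 were near background (66.7%, close to the 62.8% of all genes), and Nppa and Clu, a secreted chaperone found in many tissues, were the 2 abundant ones. The mean over the atrial list was 6.02 to 6.15 on the control arrays and 6.08 to 6.15 on the Doxy arrays. Of the 8 near background, Myl4, Myl7, Sln and Bmp10 read 6.29, 5.25, 5.52 and 4.15. The cardiomyocyte markers do not go against the labelled tissue. The atrial list, with a share near background close to that of all genes, does not show whether atrial tissue was present.

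The fibroblast list had the next highest median, 7.63, with 7 of 16 abundant, 4 intermediate and 5 near background. Dcn, the collagen-binding proteoglycan decorin, had deposited intensities between 1651 and 1986, and Gsn, an actin-severing protein that other cells make too, between 1247 and 1679. The collagens Col1a2, Col1a1 and Col3a1 were 8.62 ± 0.12, 8.46 ± 0.13 and 8.18 ± 0.13. Tcf21, Vim and Mmp2 were near background at 6.20, 5.20 and 4.72. In the extracellular matrix list 13 of 32 were abundant, among them the basement membrane collagens Col4a2 and Col4a1 at 9.51 ± 0.19 and 9.13 ± 0.25, and Postn, a protein of active fibroblasts, was near background at 6.48 ± 0.34.

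Of 16 endothelial markers 3 were abundant, 8 intermediate and 5 near background. Eng, endoglin, was 9.95 ± 0.15, Cav1, the caveola protein, 8.99 ± 0.15 and Cdh5, the endothelial cadherin, 8.35 ± 0.17. Pecam1 and Kdr, the main receptor of vascular growth factor, were just above the limit at 6.88 and 6.95. In the smooth muscle and pericyte list 3 of 12 were abundant (Acta2, Abcc9 and Des, of which Des is also a protein of heart muscle), and the smooth muscle genes Tagln, Cnn1 and Myh11 were near background at 6.36, 5.94 and 5.44.

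Of 16 macrophage markers 10 were near background (62.5%, against 62.8% of all genes), with C1qc, a complement subunit, abundant at 8.70 ± 0.11 and Cd14 and C1qa intermediate at 8.08 and 7.98. The 5 intermediate genes also included Lyz2 at 7.08 and C1qb at 6.91. Of the 10 near background, Cd68, Adgre1 and Csf1r read 6.30, 5.97 and 6.50. None of 12 lymphocyte markers was abundant, 4 were intermediate and 8 were near background (66.7%, against 62.8% of all genes). The intermediate ones included Ighm at 7.09 on the brightest of its probe sets, and Ms4a1, just above the limit at 6.84. Those near background included Cd3g, Cd3d and Cd8a at 4.11, 3.85 and 4.16. Neutrophil and mast cell markers had 10 of 12 near background. Of 6 erythroid genes Hba-a1 was the fifth brightest gene of all, and Ank1, an ankyrin that muscle also makes, was abundant; Alas2, the heme enzyme of red cells, was intermediate at 7.60 and Klf1 and Slc4a1 near background at 5.98 and 5.59.

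Markers of tissues that a dissection could carry were near background for the most part, where 62.8% of all genes were: 12 of 13 for liver, 3 of 4 for lung epithelium, 5 of 6 for thymus, 9 of 11 for Schwann cells and neurons and 6 of 7 for mesothelium. Of 10 adipocyte markers 9 were near background, with Adipoq at 4.70 ± 0.17 and Cidec at the floor. The exception, Lep, the fat cell hormone leptin, was abundant on both of its probe sets at 8.26 and 8.22 and read 274 to 323 in deposited intensity on the brighter one. In the fast skeletal muscle list 9 of 13 were near background (69.2%), and Pvalb, a calcium buffer, Myl1 and Casq1 were abundant. Pvalb was 9.55 ± 0.10 on 1 probe set and at the floor on the other on all 6 arrays, so its level is uncertain. Myl1 had a low array, 8182, at 8.56 against 9.23 to 9.66 on the others.

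**Figure D4:**
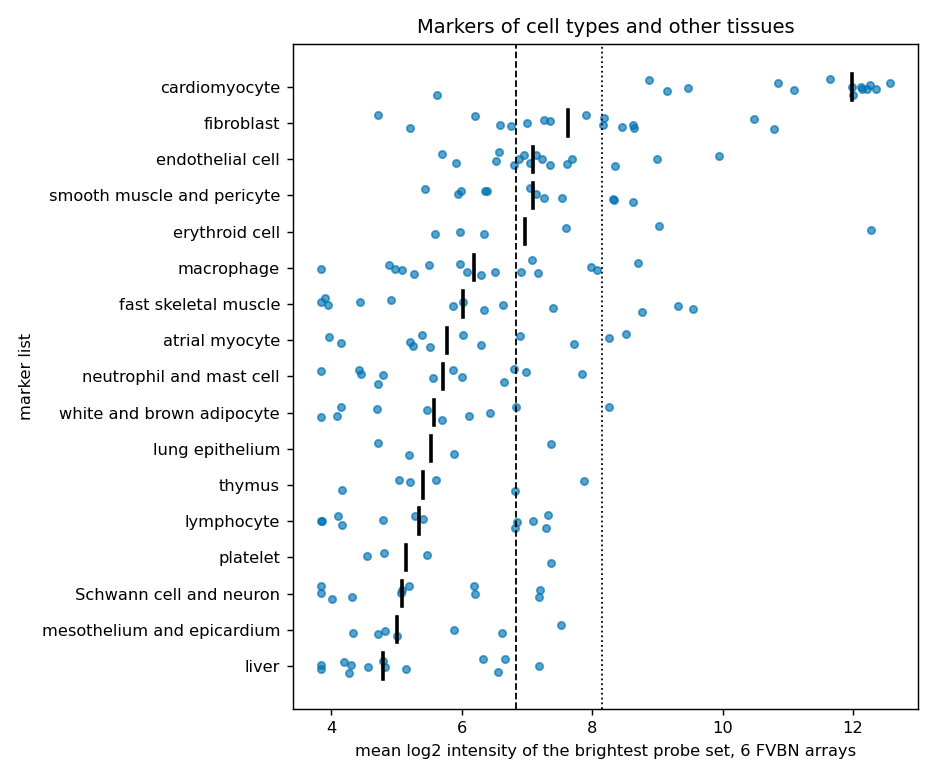
Mean log2 intensity over the 6 FVBN arrays (x axis) of each measured marker gene (points, spread vertically for legibility) in each marker list (y axis), with a bar at the list's median. The dashed line is the background limit of 6.84 and the dotted line the abundant limit of 8.15; only the cardiomyocyte list has its median, 11.98, above the abundant limit.

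Of the sex-linked genes, Xist, the RNA of the inactive X chromosome, was below the background limit on every array but unequal: 5.53 and 4.06 on the control arrays and 5.69, 5.52, 5.74 and 5.55 on the Doxy arrays. Array 8182 was the low one. The Y-linked Kdm5d was 4.27 to 4.47, Uty 3.85 to 3.91, and Eif2s3y was at the floor on every array, array 8182 included. Ddx3y had no probe set naming it alone.

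Brightness varied little from array to array. Across the probe sets naming 1 gene, Pearson's r between pairs of arrays was 0.994 to 0.998 (15 pairs; probe sets are not independent replicates). Above the background limit on all 6 arrays were 3066 probe sets, 614 were above it on 1 to 5 arrays, and 7153 on none. The median SD of the 3381 probe sets above the limit in the mean was 0.089, its 90th percentile was 0.153, and 38 had an SD of 0.3 or more. The limits cut through a continuum: Adam11, Grk5 and Alppl2 lay just above the background limit and Sult4a1, Arfip2 and Alpl just below it, all at 6.84 to 2 decimals. Bdkrb1, Llgl1 and Git1 lay just above the abundant limit and Napa, Baz1b and Gna12 just below it, all at 8.15.

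The 20 genes with the widest spread formed several patterns. Iigp1, an interferon-induced GTPase, had the largest SD, 0.54. It read 7.94 and 7.26 on the control arrays and 7.89, 7.42, 7.73 and 8.81 on the Doxy arrays, highest on 8341, and so did its other probe set with 7.31 there against 6.17 to 6.60. Genes of antigen presentation were highest on array 8337: B2m, the light chain of class I molecules, at 10.67 against 9.54 to 10.25 elsewhere, H2-K1 at 10.76 against 9.65 to 10.30, and H2-D1 at 10.39 against 9.49 to 9.64. The immunoproteasome subunit Psmb8 was also highest on 8337, and read 7.10 to 7.68 on the other arrays. H2-K1 and H2-D1 have similar sequences and both probe sets carry the letter f, so the signal of each cannot be assigned to 1 gene.

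Ptgds, a prostaglandin synthase, was highest on array 8338 on each of its 3 probe sets. On the brightest it was 10.54 and 10.34 on the control arrays and 10.35, 11.40, 11.04 and 10.78 on the Doxy arrays. Nampt, an enzyme of NAD synthesis, was 7.77 and 7.42 on the control arrays and 6.66, 6.84, 6.93 and 6.72 on the Doxy arrays. Aqp1, the water channel of endothelium and red cells, was 8.12 and 7.96 on the control arrays and 7.39, 7.45, 7.43 and 7.38 on the Doxy arrays. Capzb, an actin capping protein, was 6.97 and 7.35 on the control arrays and 7.90, 7.96, 8.18 and 7.96 on the Doxy arrays. In 9 of the 20 genes the groups do not overlap on the normalized scale (Acta1, Mid1ip1, Capzb, Nampt, Pdk4, Nr1d2, Nppb, Wdr92 and Aqp1), against 26.6% of all genes above the limit; the 20 were chosen for a spread that includes the difference between groups, and their pooled means depend on the mix of arrays. Erdr1 was low on array 8182, at 8.89 against 9.71 to 10.03.

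**Figure D5:**
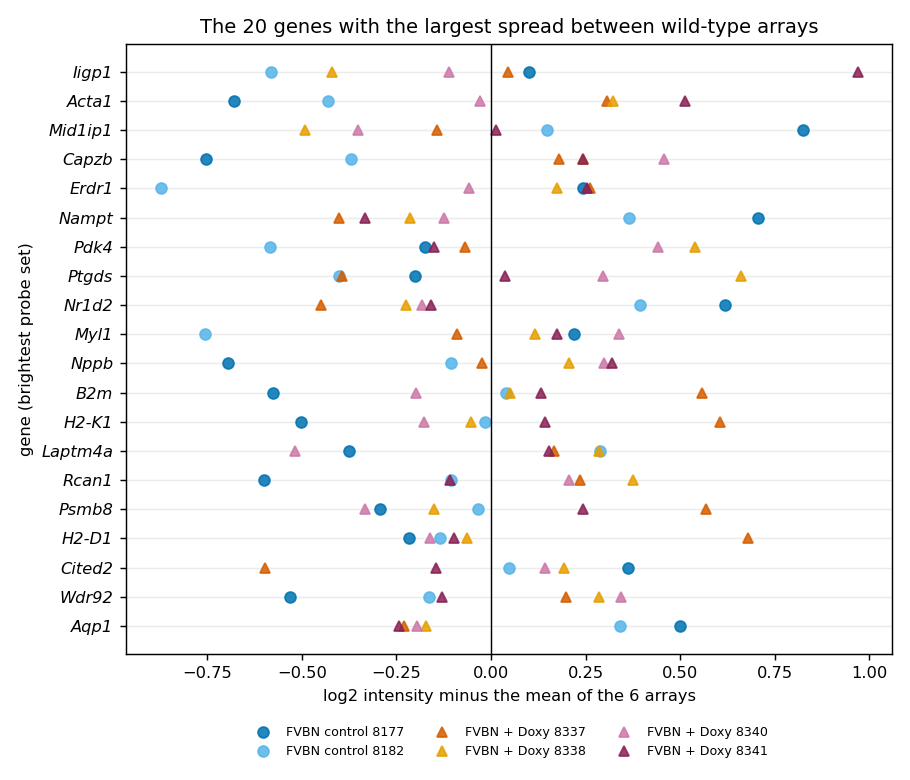
Log2 intensity minus the mean of the 6 arrays (x axis) for the 20 genes above the background limit with the largest SD (y axis, largest at the top), with circles for FVBN control and triangles for FVBN + Doxy arrays. Array 8337 is the highest in B2m, H2-K1, Psmb8 and H2-D1, array 8341 in Iigp1 and array 8338 in Ptgds.

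Depth cannot be stated for arrays, and their number limits the precision. Median deposited intensity over the probe sets naming 1 gene was 63.9 to 64.8 on the 6 arrays. The log2 difference between the 3′ and 5′ control probe sets, a sign of RNA length, was 0.38 to 0.56 for beta actin and -0.097 to 0.156 for Gapdh. Among bacterial controls that are usually added in rising amounts, the 3 probe sets for BioB read 6.38 to 7.33, on both sides of the background limit, and those for Cre 11.13 to 11.35. The brightest probe set that named several genes was shared by Cox7c and a related sequence, at 12.57, and the beta globins shared one at 11.87. Such genes are not in the ranking.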

How the data were processed

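Transcripts were measured in 20 mouse ventricle samples on Affymetrix arrays, and the 6 FVBN arrays were described. The deposited values are 1 linear intensity per probe set and array; the summary, background and normalization steps behind them were not given in the sources used here. All 249760 values have 7 decimals and end in 3, as 1 added constant would leave them; its size is unknown. Control probe sets (66) were left out. Intensities were quantile normalized over the 20 arrays, floored at 14.4 (their 10th percentile, log2 3.85), put on the log2 scale and averaged over the 6 arrays, in Python 3.11.15 with numpy 2.4.6 and pandas 2.3.3. Values at the floor have no order. Quantile normalization gives the few brightest probe sets nearly the same values on every array, so deposited intensities are printed for some of them. For the others the printed SD can differ from that of the deposited log2 values. Myh6 had 0.035 against 0.101 in the deposited values and Tnnc1 0.019 against 0.076, while Hba-a1 had 0.095 against 0.065.

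Genes come from the platform's annotation, which can be old; 10817 of 10833 probe sets naming 1 gene matched the RefSeq gene table. The class limits are the 90th percentile of other-organ probe sets and of all probe sets. Named genes are the 30 brightest, up to 6 bright members of each list and those near the background limit or in another class than most of their list, the 20 with the largest SD, those beside the class limits, those with the widest gaps between probe sets, and a few cardiac and sex-linked genes. Dbp, Arntl and further list members were named after their values were seen. The arrays, 58 gene lists and limits were chosen with earlier results of these data known. No test between groups was made. The script that assigns the classes was tested on simulated data. Alternatives changed the normalization, floor, averaging, arrays, background limit and choice of probe set.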

Additional observations from a re-analysis of the deposited data

Results flagged for a closer look

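In the 4 FVBN + Doxy arrays, 470 values were searched for an array whose distance to the nearest other exceeded Dixon's 95% limit. Chance gives about 1 in 20, and 33 were found, of which 21 also stand apart in the deposited intensities. Those that do not are Acaa2, Atp5j, Cd79a, Ckmt2, Fabp1, Gjc1, Hcn2, Kcnj11, Laptm4a, Myom2, Ogdh and Pdha1. The 2 control arrays are too few for this search. No explanation was tested.

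Array 8337 was high for H2-D1 at 10.39, Hk1 at 9.19, Mcm3 at 7.21, Cpa3 at 6.93, Gjb1 at 6.57, Mmp9 at 6.50 and Fabp1 at 4.99, and low for Ogdh at 10.85, Ndufa10 at 8.04 and Gata6 at 6.93.

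Array 8338 was high for Atp5j at 10.92, Gna12 at 8.31, Kcnj11 at 8.04, Lama4 at 7.79 and Aldoc at 5.99. It was low for Cav1 at 8.78, Bdkrb1 at 8.12, Hpd at 6.51 and Eno2 at 5.10.

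Array 8340 was high for Acaa2 at 10.70. It was low for Laptm4a at 9.75, Myom2 at 7.89, Cd79a at 7.33 and Dntt at 5.55.

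Array 8341 was high for Hcn2 at 9.59, Gjc1 at 5.80, Aldh1a2 at 5.29 and Cox5a at 4.90. It was low for Ckmt2 at 11.33, Pdha1 at 10.75, Fabp3 at 10.56, Actb at 7.68 and Tpm1 at 6.22.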

How the results depend on the processing

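The number of probe sets near background, 7452, stayed within 5726 to 8853 over all alternatives, with the extremes at a limit set to the 75th and 95th percentile of the other-organ probe sets, and the number of genes near background, 5184, within 3793 to 6427. It was 4290 genes with the limit at 6.39, the brightest of 15 bacterial control probe sets. These 15 leave out the controls usually added in rising amounts, such as BioB and Cre. It was 5738 genes with the median and 6015 with the dimmest probe set of each gene. Leaving out each array in turn gave 7435 to 7500 probe sets and 5169 to 5223 genes. Of the 100 brightest genes 97 to 100 were shared under the other normalizations, floors, averages and array subsets, but 79 with the median probe set, 76 with the dimmest and 72 with probe sets without a letter in the suffix, an alternative chosen after seeing the data. The background limit was 6.79 on the control arrays alone and 6.75 with the smallest value of the table subtracted, also chosen after seeing the data. The median SD over the 6 arrays was 0.0721 with a floor at the 25th percentile, 0.0714 on the Doxy arrays alone, 0.0513 on the control arrays alone and 0.0952 with the smallest value subtracted. Class counts of the lists moved by over 1.5 times in 89 of the alternatives' values and stayed in 2463. All 116 stayed under each of the other normalizations, floors and averages. With the dimmest probe set 33 moved and 83 stayed, and with the median probe set 16 and 100. At the 75th percentile limit 15 moved and 101 stayed, and at the 95th 9 and 107. At the 95th percentile limit the endothelial list had 11 genes near background in place of 5. Of the means of named genes 14 moved by more than their SD and 941 values did not. On the control arrays alone these were 11 genes: Acta1, Aqp1, Mid1ip1, Nampt, Ndufa5, Ndufb5, Nppb, Nr1d2, Rcan1, Slc25a4 and Wdr92. With probe sets without a letter they were 3: Capzb, Gnas and H2-K1, at 4.19, 5.46 and 7.30. Lep fell below the abundant limit on the control arrays alone. No paired analysis was possible because the groups share no array numbers and no test was made. Signal over background limits what can be said of dim genes: a probe set below the limit bounds nothing about its transcript.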
